A study of Mus musculus with 6 samples.

Results

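The 40 genes described here are the nuclear-encoded subunits of respiratory complexes II to V, together with cytochrome c and the inhibitor of the ATP synthase. They were chosen by gene symbol, by a rule that uses no measured value, although earlier results of these data were known. All 40 symbols were found, each once, among the 22298 entries of the table. They comprise 4 genes of complex II, 9 of complex III, cytochrome c, 10 of complex IV and 16 of complex V. RNA was sequenced from ocular lenses of C57BL/6 mice at postnatal day 0, from wild-type (WT) animals and from animals labelled Fyco1-/-, which carry a disruption of Fyco1, an adaptor that links autophagosomes to microtubule motors. Each genotype had 3 libraries (A, B and C), called biological replicates in the labels, and each library pooled 10 lenses. All values are FPKM, fragments per kilobase of gene scaled to the size of the library. Levels set side by side between genes or libraries rest on the gene lengths and the total used, which are not given. Results under other scalings are in the closing section. How the Fyco1 allele was made, which part of the gene it lacks and the sex of the pups are not given in the sources used here.

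The respiratory chain sits in the inner mitochondrial membrane. Complex II passes electrons from succinate to ubiquinone, complex III passes them on to cytochrome c, and complex IV, cytochrome c oxidase, hands them to oxygen. Complexes III and IV pump protons, and complex V, the ATP synthase, uses their return flow to make ATP. Complexes III, IV and V each also hold subunits encoded in mitochondrial DNA, whereas complex II is wholly nuclear. In the lens, the epithelium and the young outer fibres carry mitochondria, while maturing fibres lose them along with their other organelles.

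The libraries held an estimated 17.1 M to 20.1 M reads, from the steps between small FPKM values, and a member gene had between 222 and 41340 estimated reads in a library. Of each library's summed FPKM, crystallins, the main proteins of lens fibres, held 70.2% to 71.7%. Fyco1 itself stood at 5.40, 5.21 and 5.11 FPKM in WT libraries A, B and C and at 4.61, 4.59 and 4.87 in Fyco1-/- libraries A, B and C (log2 fold change -0.15, limma adjusted p = 0.273). A value over the whole gene does not check a deletion whose position is not known. Bfsp2, a lens intermediate filament gene on the same chromosome, stood at 1688, 1757 and 1764 FPKM in WT and at 78.3, 81.2 and 116 in Fyco1-/-, so the genotypes differed strongly at Bfsp2, and its part in the results below was not tested. Summed lens epithelium markers ran from 525.5 to 579.9 FPKM in WT and from 440.0 to 466.0 in Fyco1-/-, with 3 of 7 tested markers called lower. Lens fibre markers summed to 240200 to 247800 FPKM in WT and 245700 to 253100 in Fyco1-/-, with 1 of 12 markers called higher and 2 lower. Markers of macrophages, neural retina and pigment epithelium summed to at most 3.76 FPKM, those of mesenchyme to 2.39 to 4.88, those of vessels to 17.2 to 25.6, and erythrocyte markers to 81.4 to 195 in WT and 102 to 241 in Fyco1-/-. Striated muscle markers reached 41.4 FPKM in WT library B and 2.34 to 7.54 in the other libraries. No marker of these lists was at 0 in all 6 libraries, and the part of these cell types in the results was not tested.

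Promoters of 4 ATP synthase genes are shown because the results below turn on them. Atp5k and Atp5e were higher in Fyco1-/- under every setting tried, while Atp5g2 and Atp5g3, which encode the same mature protein, differed in opposite directions. Each sequence runs 5′ to 3′ from 250 bases before to 50 bases after the RefSeq start site (GRCm38.p6), on the minus strand in all 4 genes. Capitals mark letters of 3 short motifs known from promoters of respiratory genes, those of NRF1 (GCGCA, any base, then GCGC), ETS-family factors (CCGGAAG) and SP1 (GGGGCGGGG), searched on both strands.
Atp5k, chr5:108434350-108434649: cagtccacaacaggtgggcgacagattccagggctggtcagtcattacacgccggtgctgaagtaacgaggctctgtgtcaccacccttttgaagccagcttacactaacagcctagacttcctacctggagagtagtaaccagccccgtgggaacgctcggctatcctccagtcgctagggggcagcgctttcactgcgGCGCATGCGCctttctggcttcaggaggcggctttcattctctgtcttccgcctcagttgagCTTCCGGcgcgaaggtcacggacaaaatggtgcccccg
Atp5e, chr2:174464052-174464351: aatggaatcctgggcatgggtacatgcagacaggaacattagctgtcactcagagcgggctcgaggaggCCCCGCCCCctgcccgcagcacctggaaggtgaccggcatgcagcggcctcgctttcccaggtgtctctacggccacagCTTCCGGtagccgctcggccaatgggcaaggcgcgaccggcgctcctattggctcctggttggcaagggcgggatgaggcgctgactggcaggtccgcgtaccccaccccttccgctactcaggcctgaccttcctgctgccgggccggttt
Atp5g3, chr2:73911277-73911576: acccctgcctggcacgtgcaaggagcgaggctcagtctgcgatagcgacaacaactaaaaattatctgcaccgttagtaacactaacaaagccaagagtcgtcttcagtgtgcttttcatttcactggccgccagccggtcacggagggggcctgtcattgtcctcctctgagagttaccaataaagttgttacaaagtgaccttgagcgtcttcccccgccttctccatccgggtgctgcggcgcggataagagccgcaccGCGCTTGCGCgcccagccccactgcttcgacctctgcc
Atp5g2, chr15:102670998-102671297: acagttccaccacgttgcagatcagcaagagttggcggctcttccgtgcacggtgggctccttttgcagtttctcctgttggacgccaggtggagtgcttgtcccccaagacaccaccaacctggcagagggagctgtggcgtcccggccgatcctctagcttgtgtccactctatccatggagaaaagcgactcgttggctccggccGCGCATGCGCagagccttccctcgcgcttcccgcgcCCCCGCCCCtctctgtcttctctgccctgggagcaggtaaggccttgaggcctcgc
The Atp5k window holds an NRF1 match that begins 50 bases before the start site and an ETS match 13 bases after it. In Atp5e the matches are an ETS site 102 bases and an SP1 site 181 bases before the start. Atp5g3 has an NRF1 match 13 bases after the start, and Atp5g2 has an NRF1 match 42 bases and an SP1 match 6 bases before it. Of the 40 genes, 31 had a promoter in the RefSeq table. The NRF1 letters were found in 11 of these 31 (35.5%), against 12.3% of 8710 tested genes with a promoter and 5.19% of all 27025 genes with one. ETS letters were found in 12 of 31 (38.7%, against 21.1% of tested and 9.93% of all genes), those of SP1 in 4 (12.9%, against 25.7% and 12.9%), and the letters AAGATGGCG, known from YY1, in 2 (6.45%, against 3.94% and 1.64%). NRF1 letters were found in 3 of the 7 promoters of genes called higher in Fyco1-/-, 1 of the 2 of genes called lower and 7 of the 22 of genes not called. The RefSeq start sites do not always lie at the 5′ end of the gene in GENCODE M21. The Atp5g2 window lies inside its gene, whose 5′ end is at 102672352. That of Atpif1 (chr4:132535365-132535664) lies upstream of its gene, whose 5′ end is at 132533659. A match is a run of letters and does not show that a factor binds there.

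These subunit genes were among the more abundant transcripts of the newborn lens. On average over the 6 libraries 35 of the 40 ranked among the 1000 most abundant of the 12001 genes tested, 17 stood above 100 FPKM and 4 below 20 FPKM. Levels within a complex were far from equal: the highest member exceeded the lowest 12.6-fold in complex II, 3.25-fold in complex III, 9.69-fold in complex IV and 45.6-fold in complex V. The lowest gene counted with complex V was that of the inhibitor, Atpif1 (10.5 FPKM). Next came Atp5g1 (11.4 FPKM), 1 of 3 genes for the same mature subunit. Complex II had the lowest median level (28.4 FPKM), complex III stood at 70.6, complex V at 92.7 and complex IV at 193 FPKM. Replicates agreed closely, with a median coefficient of variation of 3.39% in WT and 3.32% in Fyco1-/-, against 8.29% and 8.24% over all genes tested. The 40 genes had a median of 87.5 FPKM against 4.33 over all genes tested, and this spread was not compared with that of equally abundant genes.

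**Figure D1:**
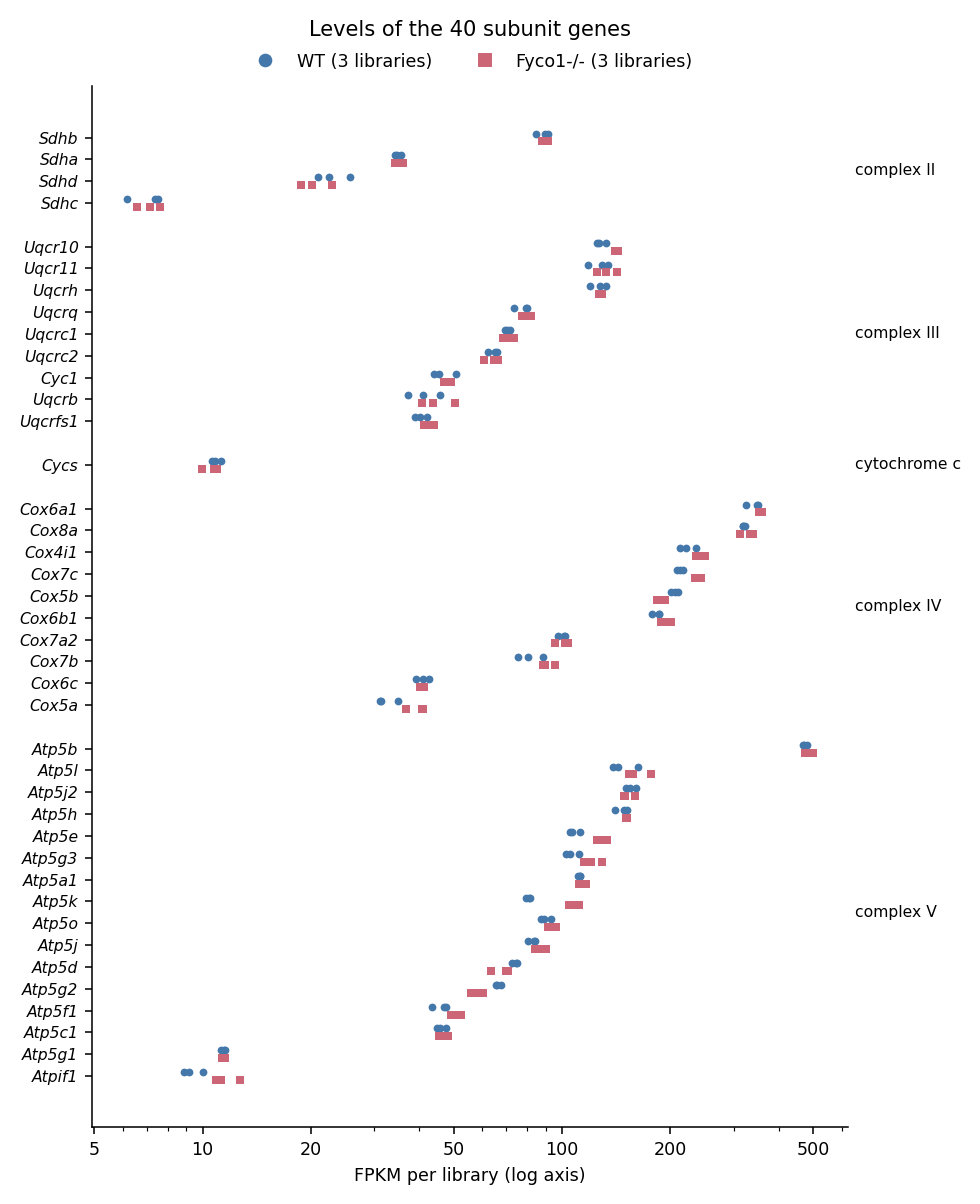
FPKM of the 40 genes in each library, on a log axis, by complex and in falling order of mean level; circles are the 3 WT and squares the 3 Fyco1-/- libraries. Atp5b stands highest and Sdhc lowest, and for most genes the circles and squares overlap or lie side by side.

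The genotypes differed little in most of these genes. The difference was tested with limma on log2(FPKM + 0.5) over all 12001 genes with a mean of at least 0.5 FPKM, with p-values adjusted by Benjamini-Hochberg over all of them, and genes with an adjusted p under 0.05 were called; all 40 genes passed the filter. In Fyco1-/- 7 of the 40 genes were called higher (Uqcr10, Cox5a, Cox7c, Atp5e, Atp5k, Atp5g3 and Atpif1) and 2 lower (Cox5b and Atp5g2). Over all genes tested 3.42% were called higher and 5.02% lower, 8.43% in all. Among tested genes of mean FPKM at least 5, 13 were called higher and 4 lower of 70 with under 600 exon bases. The counts were 14 and 12 of 138 from 600 to 1000 bases, and 54 and 52 of 658 from 1000 to 2000. From 2000 to 4000 bases they were 84 and 116 of 1640, and from 4000 bases 109 and 191 of 2760. The 3 Fyco1-/- values all lay above the 3 WT values in 11 of the 40 genes and all below in 3, where 11.1% and 18.6% of all tested genes did so. The log2 fold change was positive in 31 of the 40 genes and negative in 9, with a median of 0.043, while over all genes tested 40.1% were positive and the median was -0.043. Most differences were small: 24 genes lay under 0.1 on the log2 scale in either direction, 12 from 0.1 to 0.2 and 4 at 0.2 or more (Atp5k, Atpif1, Cox5a and Atp5e). In bulk RNA a difference in the number of cells of a type cannot be told apart from a difference in RNA per cell.

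**Figure D2:**
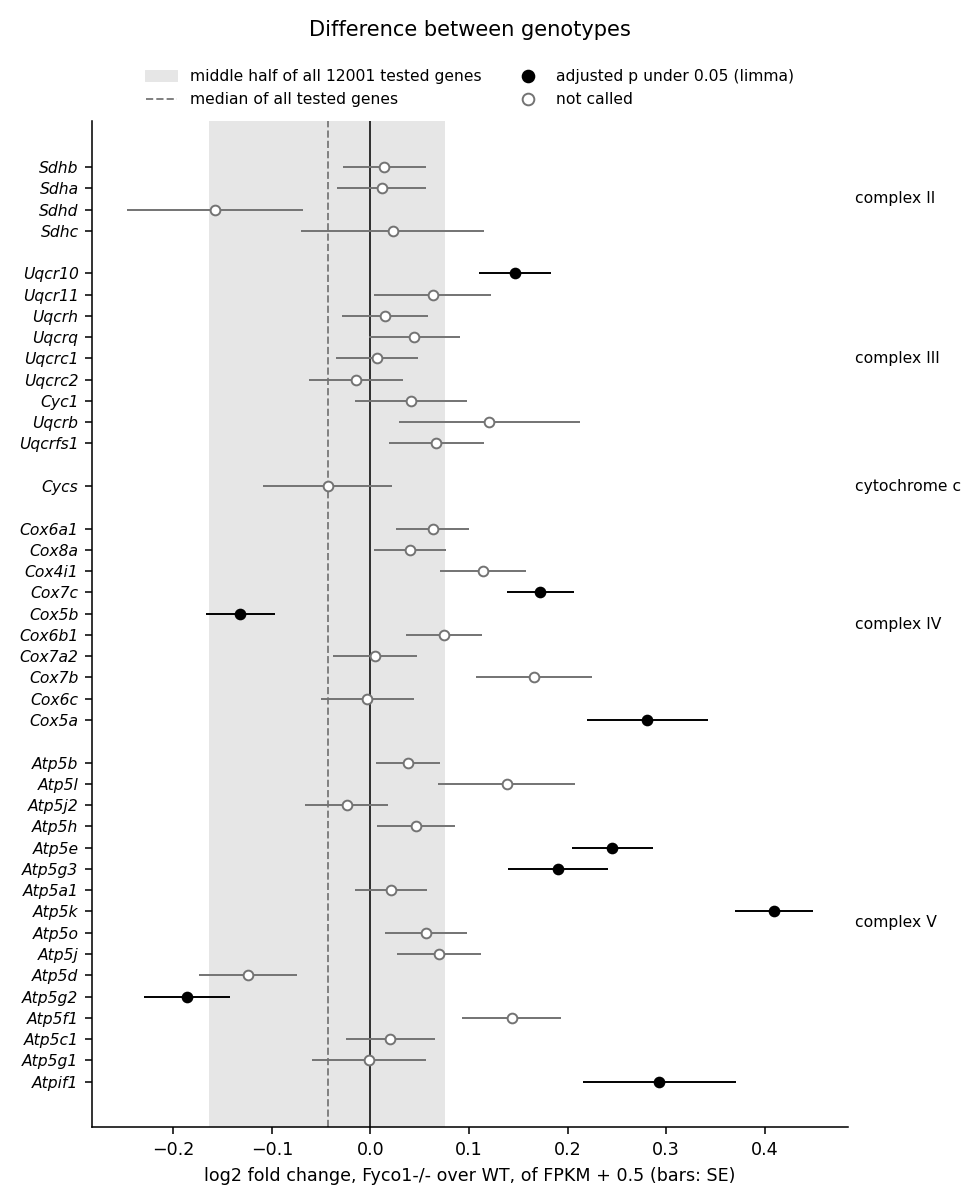
Log2 fold change of FPKM + 0.5, Fyco1-/- over WT, for the 40 genes by complex, with bars of 1 standard error. Filled points are the 9 called genes, the dashed line is the median of all 12001 tested genes (-0.043) and the grey band runs from the first to the third quartile of these genes.

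The count of calls depended on single libraries. It fell from 7 higher and 2 lower to 5 and 0 without WT library A, 4 and 0 without WT library B or C, 5 and 1 without Fyco1-/- library A, and 3 and 0 without Fyco1-/- library B or C. Calls over all genes fell in the same fits, from 8.43% to 5.1%, 5.06% and 6.94% without WT library A, B or C and to 7.19%, 5.61% and 5.35% without Fyco1-/- library A, B or C. Measured against the WT mean of each gene, the median of the 40 genes stood at -0.011, 0.0035 and 0.020 (log2) in WT libraries A, B and C and at 0.044, 0.076 and 0.027 in the Fyco1-/- libraries, with library B highest. The genes above their WT mean numbered 27, 33 and 28 in Fyco1-/- libraries A, B and C. Over all genes tested 46.9%, 44.3% and 36.0% lay above their WT mean in the same libraries. The median of all genes tested stood at 0.027, 0.017 and -0.043 in the WT libraries and at -0.016, -0.029 and -0.074 in the Fyco1-/- libraries. With the values rescaled by median-of-ratios factors 7 genes were called higher and 0 lower, with 9.25% of all genes called, and 56.5% of all calls were then higher, against 40.5% as reported. In the authors' deposited table, from DESeq2, 7 of the 40 genes were higher and 0 lower at an adjusted p under 0.05, with 9.37% of 13066 entries called. The authors' deposited table shares Cox5a, Cox7c, Atp5e, Atp5k and Atp5g3 with the calls made here, and has Cox7b and Atp5f1 where Uqcr10 and Atpif1 were called here.

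No complex II gene passed the test with limma, and 0 of the 4 had an unadjusted p under 0.05. Succinate dehydrogenase has a flavoprotein, Sdha, an iron-sulphur protein, Sdhb, and 2 membrane anchors, Sdhc and Sdhd. Sdhb, the most abundant, stood at 84.5, 89.3 and 91.1 FPKM in WT and at 88.2, 91.4 and 87.8 in Fyco1-/-, and Sdhc, the least abundant, at 7.38, 7.49 and 6.14 and at 7.14, 7.61 and 6.57. Both pairs of ranges overlapped (log2 fold changes 0.014 and 0.023, limma adjusted p = 0.877 and 0.910). The other anchor, Sdhd, had the lowest log2 fold change of the complex, -0.16 (SE 0.089, adjusted p = 0.317), with overlapping groups. The lowest adjusted p of the 4 in the authors' deposited table is 0.652, for Sdhd. The 4 genes summed to 153 ± 4.55 FPKM in WT and 152 ± 5.36 in Fyco1-/- (SD, n = 3).

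In complex III 1 of 9 genes was called, Uqcr10, which encodes a small subunit beside the cytochrome c1 and Rieske proteins (chr11:4701973-4704342, GRCm38, minus strand). Its level was 127, 125 and 132 FPKM in WT and 143, 140 and 141 in Fyco1-/-, so the groups did not overlap (log2 fold change 0.15, SE 0.037, limma adjusted p = 0.0364). The call was lost in 10 of 17 alternatives, among them 5 of the 6 that left out a library (adjusted p up to 0.118; kept without WT library C), and with GC and length trends removed the log2 fold change was 0.029. The authors' deposited table gives Uqcr10 a log2 fold change of 0.19 with an adjusted p of 0.0578. The lowest gene of the complex, Uqcrfs1, the Rieske iron-sulphur protein, stood at 39.1, 40.3 and 42.2 FPKM in WT and 42.1, 43.95 and 41.3 in Fyco1-/-, and these ranges overlapped. The electron carrier Cyc1 and the core proteins Uqcrc1 and Uqcrc2 had log2 fold changes of 0.041, 0.0066 and -0.014, and the other small subunits Uqcrb, Uqcrh, Uqcrq and Uqcr11 of 0.12, 0.015, 0.045 and 0.063, none of which passed the test. The summed level was 722 ± 21.3 FPKM in WT and 752 ± 13.6 in Fyco1-/-, with overlapping libraries. Cycs, the mobile carrier cytochrome c, was at 11.3, 10.6 and 10.8 FPKM in WT and 10.7, 9.94 and 10.98 in Fyco1-/-, again overlapping (log2 fold change -0.043, adjusted p = 0.742).

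Complex IV had 2 genes called higher and 1 lower of 10, and the 2 matrix-facing subunits that share a name differed in opposite directions. Cox5a (chr9:57521274-57532426, plus strand) stood at 34.8, 31.2 and 31.3 FPKM in WT and at 41.0, 36.9 and 40.6 in Fyco1-/- (log2 fold change 0.28, SE 0.062, limma adjusted p = 0.0208). Cox5b, the zinc-binding subunit (chr1:36691449-36693681, plus strand), stood at 201, 206 and 210 FPKM in WT and at 184, 193 and 187 in Fyco1-/- (log2 fold change -0.13, SE 0.035, adjusted p = 0.0469). All 3 Fyco1-/- values lay above the WT values for Cox5a and below them for Cox5b. Cox7c, a small membrane subunit (chr13:86044816-86046904, minus strand), was at 213, 208 and 217 FPKM in WT and 241, 244 and 234 in Fyco1-/-, without overlap (log2 fold change 0.17, SE 0.034, adjusted p = 0.0128).

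These 3 calls were not equally firm. Cox5b lost its call in 11 of 17 alternatives, including each that left out 1 library (adjusted p from 0.0682 to 0.129) and median-of-ratios scaling (log2 fold change -0.086, adjusted p = 0.339). The authors' deposited table gives Cox5b a log2 fold change of -0.081 with an adjusted p of 0.514. Cox5a lost its call in 5, without WT library B or C, without Fyco1-/- library A or C and with no filter on low values (highest adjusted p 0.0791), and Cox7c in 3, without Fyco1-/- library B and in both fits with the GC and length trends removed (highest adjusted p 0.199). Copies elsewhere in the genome that match a transcript at 95% or more across 200 bases bear on some values: Cox5b matches Gm11273 on chromosome 13 (99.2% over 390 bases, mean 2.48 FPKM), and Cox7c matches the pseudogene Gm10012 on chromosome 17 (99.4% over 315 bases, mean 0.270 FPKM). How reads that fit several places were counted is not given in the sources used here. Exons of Cox5a overlap the opposite-strand Gm26631 by 269 bases (12.8% of its exon bases; Gm26631 was at 0.154 FPKM), and the use of strand in counting is not given either. Cox5a is also the 1 called gene of the 5 on chromosome 9, the chromosome of Fyco1, where 13.1% of tested genes were called against 8.17% elsewhere.

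The other complex IV genes did not pass the test. Cox6a1, the most abundant of them, had 324, 349 and 350 FPKM in WT and 353, 360 and 355 in Fyco1-/- (log2 fold change 0.063, adjusted p = 0.330). Cox4i1, a regulatory subunit, had 221, 213 and 235 against 236, 250 and 237 (0.11, adjusted p = 0.141), and Cox6b1, which faces the intermembrane space, 177, 186 and 187 against 188, 200 and 191 (0.075, adjusted p = 0.265). In these 3 genes every Fyco1-/- value lay above every WT value, if by a narrow margin, and Cox4i1 was called higher with quantile normalization alone. Cox7b had a log2 fold change of 0.17 with overlapping groups (adjusted p = 0.116) and was called without WT library A, while Cox6c, Cox7a2 and Cox8a lay between -0.0034 and 0.040. Summed over the 10 genes, the level was 1740 ± 27.6 FPKM in WT and 1818 ± 35.1 in Fyco1-/-, 1.04 times higher, with no overlap between libraries. Sums by complex were not computed with the GC and length trends removed.

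Complex V held the gene that differed most, Atp5k, which encodes subunit e of the membrane part, known for its place at the contact between paired ATP synthases (chr5:108433244-108434448, minus strand). It stood at 79.5, 80.9 and 81.3 FPKM in WT and at 104, 106 and 111 in Fyco1-/-, 1.33 times higher with no overlap (log2 fold change 0.41, SE 0.040, limma adjusted p = 0.000222). Atp5e, the epsilon subunit of the catalytic head (chr2:174461072-174464105, minus strand), stood at 105, 107 and 112 FPKM in WT and 133, 127 and 125 in Fyco1-/-, 1.19 times higher and again without overlap (log2 fold change 0.25, SE 0.041, adjusted p = 0.00565). These 2 calls held in all 17 alternatives, with adjusted p from 0.000128 to 0.00432 for Atp5k and from 0.00416 to 0.0346 for Atp5e. Their log2 fold changes ran from 0.31 to 0.46 and from 0.21 to 0.29. The authors' deposited table gives log2 fold changes of 0.44 for Atp5k and 0.29 for Atp5e, with adjusted p of 2.53e-07 and 4.56e-06. Atp5k has a near-identical pseudogene, Atp5k-ps2, on chromosome 2 (95.7% over 210 bases), not analysed here, while Atp5e has none by this search.

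No other gene of the catalytic head was called. Atp5b, the catalytic beta subunit and the most abundant of the 40 genes, stood at 466, 480 and 469 FPKM in WT and 475, 500 and 479 in Fyco1-/-, with overlap (log2 fold change 0.038, adjusted p = 0.516). The alpha and gamma subunits, Atp5a1 and Atp5c1, had log2 fold changes of 0.021 and 0.020. The delta subunit, Atp5d, which sits beside epsilon on the central stalk, was at 75.04, 74.6 and 72.6 FPKM in WT and 69.9, 70.9 and 63.2 in Fyco1-/-, lower in all 3 libraries but not called (log2 fold change -0.12, SE 0.050, adjusted p = 0.158). Quantile normalization was the 1 alternative that called Atp5d lower. None of the 4 peripheral stalk genes (Atp5o, Atp5f1, Atp5h and Atp5j) was called, with log2 fold changes from 0.046 to 0.14 and 1 unadjusted p under 0.05, that of Atp5f1. The highest of them, Atp5f1, had 43.4, 46.9 and 47.4 FPKM in WT and 49.1, 50.7 and 52.4 in Fyco1-/-, without overlap (limma adjusted p = 0.111), and in the authors' deposited table its adjusted p is 0.0427. Of the other membrane subunits, Atp5l, subunit g and the partner of Atp5k, had a log2 fold change of 0.14 with overlapping libraries (SE 0.070, adjusted p = 0.262), and Atp5j2 of -0.024.

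The 3 genes of the c subunit, the protein that forms the rotating ring, differed from each other. Their precursors carry different import sequences and yield the same mature protein. Atp5g3 (chr2:73908447-73911326, minus strand), the most abundant, was at 102, 112 and 105 FPKM in WT and 115, 129 and 121 in Fyco1-/- (log2 fold change 0.19, SE 0.051, limma adjusted p = 0.0464). Atp5g2 (chr15:102662864-102672352, minus strand) was at 65.7, 65.5 and 67.7 FPKM in WT and 60.4, 55.8 and 58.6 in Fyco1-/- (log2 fold change -0.19, SE 0.044, adjusted p = 0.0284). Neither pair of groups overlapped, whereas Atp5g1 stood at 11.5, 11.5 and 11.2 FPKM in WT and 11.3, 11.5 and 11.4 in Fyco1-/-, with overlap. Together the 3 genes summed to 184 ± 4.57 FPKM in WT and 191 ± 4.77 in Fyco1-/-, with overlap. Of that sum Atp5g3 made up 57.7% ± 1.23 in WT and 63.5% ± 2.07 in Fyco1-/-, Atp5g2 36.1% ± 1.153 and 30.5% ± 1.97, and Atp5g1 6.21% ± 0.161 and 5.97% ± 0.0968 (SD, n = 3), with no overlap in any of the 3 shares. Being parts of the same sum, the shares depend on each other and are not separate results. The level of Atp5g1 itself had a log2 fold change of -0.0013 (limma adjusted p = 0.992). The call for Atp5g3 was lost in 8 of 17 alternatives (without WT library A or C, without Fyco1-/- library B or C and in 4 others; highest adjusted p 0.155), and that for Atp5g2 in 8 (without each single library except Fyco1-/- library A, and in 3 others, among them median-of-ratios scaling with a log2 fold change of -0.14 and adjusted p = 0.137). Atp5g2 is identical to the pseudogenes Gm10175 over 645 bases (0.434 FPKM) and Gm10231 over 441 bases (0.158 FPKM). In the authors' deposited table Atp5g3 has an adjusted p of 0.00659 and Atp5g2 of 0.356.

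Atpif1, whose protein blocks the reverse, ATP-splitting action of the synthase, was the least abundant complex V gene (chr4:132530555-132533659, minus strand). It stood at 10.04, 9.18 and 8.89 FPKM in WT and at 10.9, 11.3 and 12.7 in Fyco1-/-, without overlap (log2 fold change 0.29, SE 0.078, limma adjusted p = 0.0452). This call was lost in 9 of 17 alternatives, among them each that left out a single library except Fyco1-/- library A (highest adjusted p 0.148). The authors' deposited table gives Atpif1 an adjusted p of 0.142. An antisense gene, Gm12999, overlaps 485 of its 1441 exon bases, and without a stated use of strand the reads of the 2 genes cannot be told apart. Summed over the 16 genes of complex V the level was 1754 ± 3.70 FPKM in WT and 1849 ± 42.3 in Fyco1-/-, 1.05 times higher, with no overlap between libraries.

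**Figure D3:**
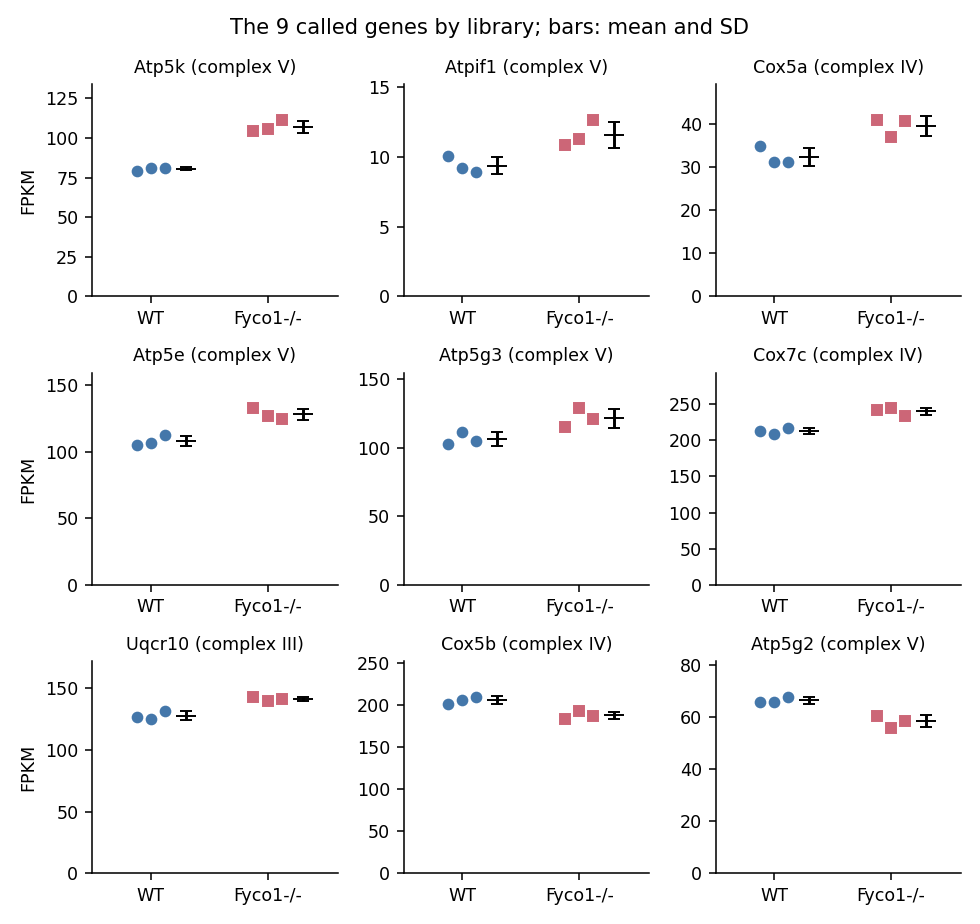
FPKM of the 9 called genes in each library (WT circles, Fyco1-/- squares; A, B and C from left to right), with the mean and SD of each genotype as bars; every axis starts at 0. The 3 Fyco1-/- values lie above the 3 WT values in 7 genes and below them in Cox5b and Atp5g2.

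**Figure D4:**
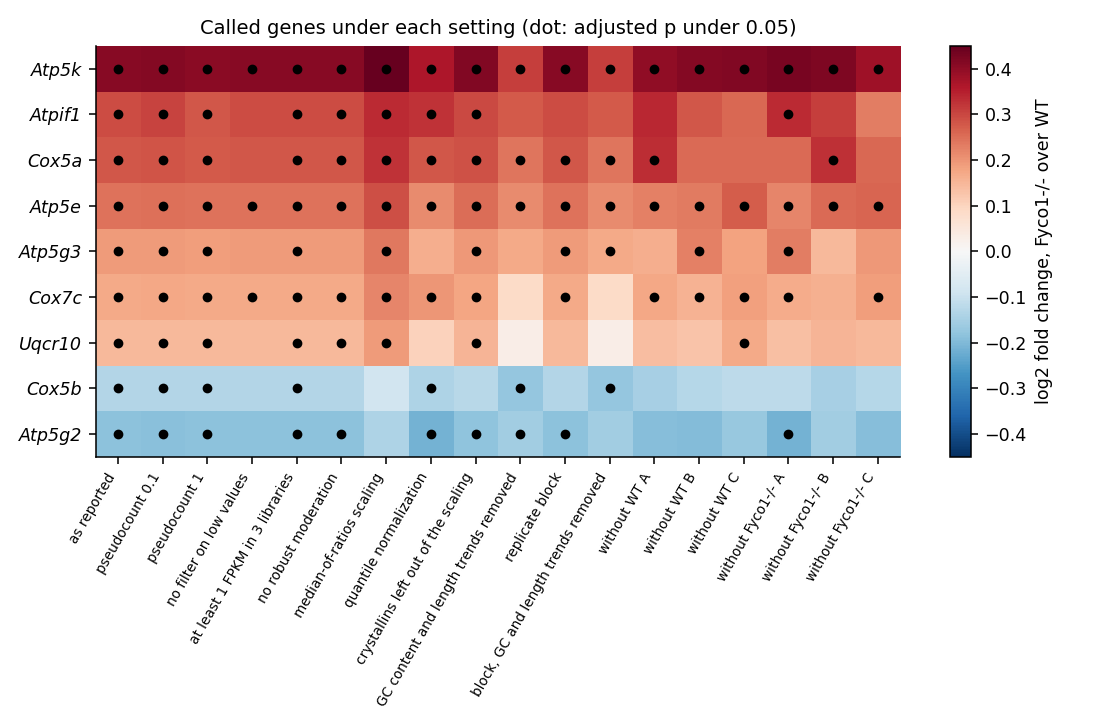
Log2 fold change (colour) of the 9 called genes as reported and under each of 17 other settings; a dot marks an adjusted p under 0.05. Atp5k and Atp5e have a dot in every column, whereas Cox5b has none in the 6 columns that leave out a library.

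The median difference varied with summed exon length, highest in the shortest class and lowest in the longest, but not in steady order between them. Among tested genes of mean FPKM at least 5, the median log2 fold change was 0.093 for genes with under 600 exon bases, 0.011 from 600 to 1000, 0.021 from 1000 to 2000, -0.013 from 2000 to 4000 and -0.031 from 4000 bases. The 40 genes are short, with a median of 1831 exon bases against 4345 over all genes tested. All 8 members under 1000 exon bases (Uqcrb, Uqcr10, Uqcr11, Cox6a1, Cox6b1, Cox7a2, Cox8a and Atp5k) had positive log2 fold changes, with a median of 0.069, and the 31 longer ones had a median of 0.023, 22 of them positive. Of these 8, Uqcr10 alone had under 600 exon bases (584). Among tested genes of mean FPKM at least 5, 65.7% were positive under 600 bases and 54.35% from 600 to 1000. The shares were 54.9% from 1000 to 2000 bases, 46.2% from 2000 to 4000 and 41.85% from 4000. After removal of trends on GC content and on length, 3 of 39 genes were called higher (Cox5a, Atp5e and Atp5k) and 2 lower (Cox5b and Atp5g2), where 8.59% of all 11393 genes in that fit were called, 397 higher and 582 lower. The log2 fold change was then positive in 23 and negative in 16, with a median of 0.011 against -0.037 over all genes. Atp5o matched 2 genes of the annotation and had no length.

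**Figure D5:**
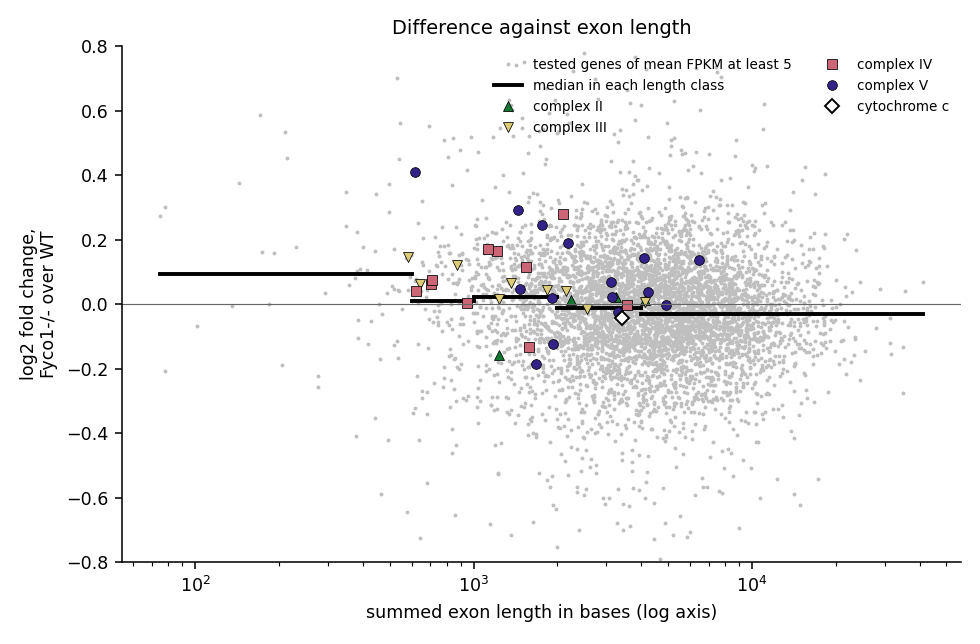
Log2 fold change, Fyco1-/- over WT, against summed exon length (log axis); grey dots are tested genes of mean FPKM at least 5, black bars their median in each of 5 length classes, and symbols the members by complex. The bar lies highest for the shortest class, and 47 of 5266 grey genes fall outside the plotted range of 0.8.

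Genes that work with these subunits were counted in the same fit, where 3.42% of all genes tested were called higher and 5.02% lower. Of 35 tested nuclear subunits of complex I, which feeds electrons into the chain from NADH, 4 were called higher (Ndufa3, Ndufa5, Ndufa13 and Ndufb8) and 0 lower, with a median log2 fold change of 0.090. Ndufb8 was at 18.7 ± 0.384 FPKM in WT and 23.3 ± 1.24 in Fyco1-/- (SD, n = 3; log2 fold change 0.31, limma adjusted p = 0.00865), and its call held in all 17 alternatives. The complex I count was 1 without WT library A or B or without Fyco1-/- library A or C, and 2 without WT library C. The largest difference of this list did not pass the test: Ndufs5, a small subunit singled out after its values were seen, stood at 109.8, 115.1 and 125.1 FPKM in WT and at 6.32, 32.5 and 13.5 in Fyco1-/-, without overlap (log2 fold change -3.00, SE 0.640, adjusted p = 0.0753). Ndufs5 was called lower in 3 of 17 alternatives, with no filter on low values, without robust moderation and without Fyco1-/- library B. The authors' deposited table calls Ndufs5 lower, with a log2 fold change of -0.50 and an adjusted p of 0.00497. That difference is far smaller than the -3.00 found here from the FPKM, and the reason was not tested. Of 12 tested transcripts encoded in mitochondrial DNA, none was called higher and 1 lower, with a median of -0.15. That gene, mt-Atp6, the proton channel subunit of complex V, stood at 14.3, 12.9 and 13.6 FPKM in WT and 9.66, 11.1 and 11.1 in Fyco1-/- (log2 fold change -0.34, SE 0.074, adjusted p = 0.0195), a call lost in 3 alternatives, without WT library A or C and with no filter on low values. The number called lower was 5 with the GC and length trends removed, where 582 of 11393 genes were, and without WT library A it was 0, with 1 mitochondrial transcript called higher. The complex III gene mt-Cytb was at 2216, 1922 and 2011 FPKM in WT and 1710, 1899 and 1901 in Fyco1-/-, below in all 3 libraries but not called (adjusted p = 0.145), and mt-Co1, the catalytic subunit of complex IV, at 2665 ± 101 and 2515 ± 145 with overlap. In WT mt-Atp6 and mt-Co3 stood at 13.6 and 12.3 FPKM where mt-Co1 stood at 2665, and how reads that also match nuclear copies of mitochondrial DNA were counted is not given. The authors' deposited table calls 1 mitochondrial transcript higher, mt-Nd6, and none lower.

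Further subunits and tissue isoforms of complexes II to V gave 1 call in each direction among 10 tested. Over all genes tested 3.42% were called higher and 5.02% lower. The uncharacterised symbol 2010107E04Rik, known as a small proteolipid of the ATP synthase, was at 180, 160 and 171 FPKM in WT and 196, 210 and 211 in Fyco1-/- (log2 fold change 0.27, SE 0.049, limma adjusted p = 0.00820). Cox7a2l was at 63.6, 62.1 and 63.7 FPKM in WT and 49.3, 51.7 and 50.7 in Fyco1-/- (log2 fold change -0.32, SE 0.041, adjusted p = 0.00115). Neither gene's groups overlapped, and both calls held in every alternative that gave a value (15 for 2010107E04Rik and 17 for Cox7a2l). The muscle isoforms Cox6a2 and Cox7a1 had WT means of 5.60 and 2.46 FPKM and were not called.

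Among 30 tested assembly factors of complexes II to V, 1 was called higher and 3 lower, with a median log2 fold change of -0.034. These counts lie near the shares over all genes tested, 3.42% higher and 5.02% lower. Cox14, which takes part in making the mitochondrially encoded core of complex IV, was at 79.4 ± 1.70 FPKM in WT and 67.0 ± 2.78 in Fyco1-/- (log2 fold change -0.25, limma adjusted p = 0.00755). Tmem70, an assembly factor of the ATP synthase, was at 4.83 ± 0.358 and 3.03 ± 0.316 FPKM (log2 fold change -0.59, adjusted p = 0.00522). Lyrm7, which stabilises the Rieske protein before its insertion into complex III, was at 1.16 ± 0.311 and 0.407 ± 0.0956 FPKM (log2 fold change -0.86, adjusted p = 0.0132; 0.0516 without WT library A). Cox14 and Tmem70 stayed called in all 17 alternatives. Pet100, a complex IV assembly factor, was higher at 9.68 ± 0.444 and 11.7 ± 0.296 FPKM (log2 fold change 0.26, adjusted p = 0.0320), a call lost in 10 alternatives, including each that left out a library. The authors' deposited table calls Tmem70 and Lyrm7 lower and no other factor of this list.

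Lists beyond the chain held no calls in this fit, where 8.43% of all genes tested were called. In lists of their size that share amounts to few genes. None of 16 tested genes of the citric acid cycle and pyruvate dehydrogenase, 15 of the transcription of respiratory genes and mitochondrial DNA, 21 other mitochondrial proteins or Hccs, which attaches haem to cytochrome c, passed the test with limma. At an unadjusted p under 0.05 the counts were 1 of 16, 1 of 15, 2 of 21 and 0 of 1, against 24.4% of all genes tested and 13 of the 40 members. Their median log2 fold changes were 0.013, -0.025 and 0.0087, with 0.094 for Hccs. The authors' deposited table likewise calls none of the first, the second and the last of these lists, but calls Hspe1 and Hspa9, both mitochondrial chaperones, higher among the other mitochondrial proteins. In the limma fit Hspa9 came close to a call, without overlap between groups (log2 fold change 0.17, adjusted p = 0.0503). With a pseudocount of 1, or with at least 1 FPKM in 3 libraries, 1 of the other mitochondrial proteins was called higher. The same count was 1 with median-of-ratios scaling, with crystallins left out of the scaling and without Fyco1-/- library B.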

How the data were processed

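RNA of newborn mouse lenses was sequenced in 3 WT and 3 Fyco1-/- libraries, grouped by the genotype label. Per the submitters' processing notes, reads were aligned to GRCm38/mm10 with STAR 2.5, counted with HTSeq 0.6.1 and compared with DESeq2. The deposited FPKM were computed by the authors, 1 column per library, and the deposited log2 fold changes and p-values are the authors' own from DESeq2. The total used for scaling, the gene annotation and the use of strand are not given in the sources used here. Depth was estimated from the steps of the FPKM values, so no counting intervals are given.

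Genes with a mean of at least 0.5 FPKM (12001) were tested by limma 3.58.1 (R 4.3.3) after adding 0.5 and taking log2, two-sided, moderated robustly and along the mean trend, genotype being the only term and Benjamini-Hochberg adjustment over all of them. Fold changes on this scale understate those of low genes. The steps were tested on simulated data. P-values measure the spread between these pooled libraries, and an exact permutation test of 3 against 3 cannot go below 0.1, the value it gave for each c-subunit share, so calls rest on limma. The letters A, B and C were not taken as pairs and entered only as an alternative. The 17 alternatives are in the closing section.

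The members and lists were chosen with earlier results of these data known. Given with every library are called members, the highest and lowest member of each complex, and the c-subunit genes with Atpif1. From pathway lists, called genes are named, up to 4 by p. Other members and genes given in full, such as Cox4i1, Atp5d, Atp5f1 and mt-Cytb, were picked after their values were seen, as were the promoters printed. Positions and exon lengths are from GENCODE M21 (39 of 40 members matched), promoters from RefSeq, and near-identical transcripts from blastn 2.17.0.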

Additional observations from a re-analysis of the deposited data

How the results depend on the processing

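Of the 9 calls, those of Atp5k and Atp5e held under all 17 alternatives, and every called gene kept its direction under each alternative that gave it a value; where calls changed, the cause was not tested. The members called higher and lower numbered 3 and 0 with no filter on low values (246 and 322 over all genes), 6 and 1 without robust moderation, 7 and 0 with median-of-ratios scaling (627 of all genes higher), 7 and 1 with crystallins left out of the scaling, and 3 and 2 with GC and length trends removed. With 1 library left out the members ran from 3 to 5 higher and 0 to 1 lower, and all genes from 268 to 332 higher and 325 to 541 lower. The members' median was 0.089 with median-of-ratios scaling and 0.011 with the trends removed, and the summed ratios of complexes IV and V were 1.08 and 1.09 with median-of-ratios scaling. The sums of all complexes, V included, were not computed with the trends removed. Over all genes tested, libraries of the same letter had correlations of deviations of -0.03, 0.028 and 0.027. These values cannot show whether such libraries shared a litter or a day of preparation. The replicate block gave 5 and 1 members (367 and 562 of all genes), and with the trends removed 4 and 2, with the same median of 0.011. Atp5o had no length and was not run with the trends removed.

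Calls were added for Cox4i1 and Atp5d with quantile normalization, Cox7b without WT library A and Sdhd with the replicate block and the trends removed. The genes that changed sign were never called. With quantile normalization Sdhb was at -0.029, Uqcrc1 -0.044, Uqcrh -0.021, Cox7a2 -0.041 and Atp5g1 0.028. With median-of-ratios scaling Uqcrc2 was at 0.032, Cycs 0.00085, Cox6c 0.042, Atp5j2 0.022 and Atp5g1 0.043, and with crystallins left out Cox6c 0.0026 and Atp5g1 0.0044. With the trends removed, with or without the replicate block, Uqcrh was at -0.055, Uqcr11 -0.011, Cox6b1 -0.036, Cox7a2 -0.069, Cox8a -0.043, Atp5c1 -0.0046 and Atp5h -0.0089. With 1 library left out the ranges crossed 0 for Sdha (-0.0049 to 0.030), Sdhb (-0.017 to 0.036), Sdhc (-0.063 to 0.074), Uqcrc1 (-0.020 to 0.031), Uqcrc2 (-0.044 to 0.023), Uqcrh (-0.027 to 0.049), Cox6c (-0.034 to 0.026), Cox7a2 (-0.018 to 0.039), Atp5a1 (-0.00033 to 0.034), Atp5c1 (-8.3e-05 to 0.044), Atp5j2 (-0.058 to 0.0015) and Atp5g1 (-0.012 to 0.0062). Depth limits Atpif1 most, with 222 to 345 estimated reads a library.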
